A study of Mus musculus with 2 samples.

Results

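The keratin family was examined in polyadenylated RNA of the mammary gland, as every gene of the table whose symbol is Krt followed by a number, keratin-associated (Krtap) genes left out. This gave 52 of 21113 genes. They were sorted by textbook site of expression into 6 simple epithelial, 4 basal, 16 skin and 24 hair keratins, with Krt222 and the pseudogene row Krt72-ps placed apart as other. The study held 2 libraries. One came from a C57BL/6 gland at postnatal week 6 carrying the ILN allele, an IRES-LacZ-Neo cassette inserted at the Mir212/132 locus, on both chromosomes. The other came from a wild-type C57BL/6 gland of the same age. They are called ILN/ILN and WT here. Mir212 and Mir132 were not analysed here, so the genotypes were taken from the labels unchecked. The labels give neither the sex nor the number of animals behind a library, nor which part of the gland was taken.

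Keratins are the intermediate filaments of epithelial cells. A type I (acidic) and a type II (basic) keratin bind each other to form a filament, and a cell that builds keratin filaments makes both types. In the mammary gland, luminal cells are known for the pair of Krt8 and Krt18 with Krt19 and Krt7, and the surrounding basal, myoepithelial layer for the pair of Krt5 and Krt14 with Krt17. The gland lies under the skin and is embedded in fat, and fat and blood cells do not build keratin filaments.

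Levels are given as fragments, the whole numbers behind the deposited values, and as fragments per 1000000 of the library total. Gene fragments summed to 42953129 in ILN/ILN and 46133338 in WT. A count of 0 allows up to 3 fragments, which is 0.0698 per 1000000 in ILN/ILN and 0.0650 in WT. A fold given as at least sets the 0 to 3 fragments. It leaves out the counting error of the other library, so it is not a limit of a 95% interval. A ratio is ILN/ILN over WT, scaled by these totals, and a range after it is the 95% interval for counting error alone. With 1 library per genotype no difference has a replicate check and no test or p-value was computed. In a piece of tissue, fewer cells of a type and less RNA per cell cannot be told apart.

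Keratin transcripts were scarce in both libraries and scarcer in ILN/ILN. All 52 genes together had 1079 fragments, or 25.1 per 1000000 (23.6 to 26.7), in ILN/ILN, against 3836 fragments, or 83.2 per 1000000 (80.5 to 85.8), in WT. The summed level was 3.31-fold lower (3.09 to 3.54) in ILN/ILN. Of the 52 genes, 15 had at least 3 fragments in ILN/ILN and 17 in WT. In both libraries together 27 genes had any fragment. The 25 genes at 0 in both were 18 hair keratins, 6 skin keratins and Krt72-ps.

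**Figure D1:**
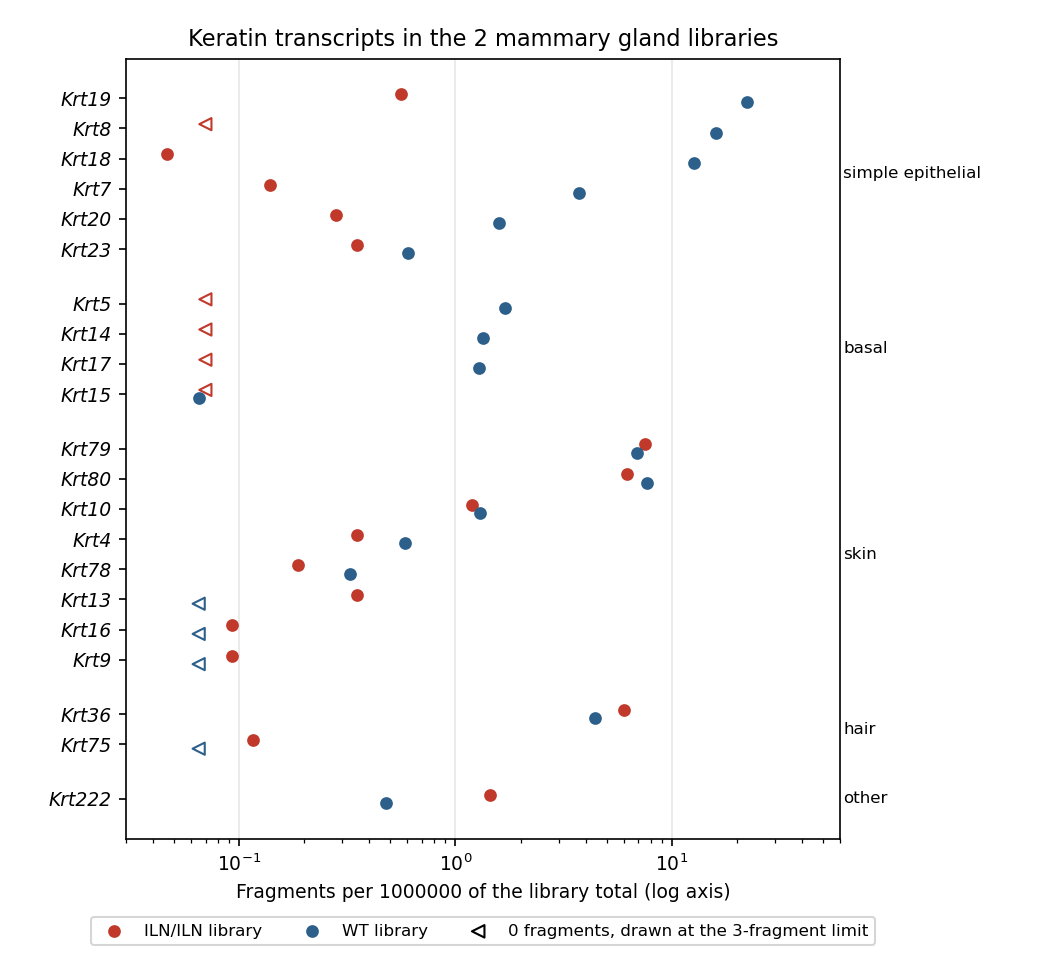
Fragments per 1000000 of the library total (log axis) for the 21 keratins with at least 3 fragments in either library, by group. Red points are the ILN/ILN library and blue points the WT library, and open triangles mark a count of 0 drawn at the 3-fragment limit. Krt8, Krt18, Krt19, Krt7, Krt5, Krt14 and Krt17 lie far apart between the libraries, while Krt79, Krt80, Krt10 and Krt36 lie close together.

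For ratios, 16 keratins had at least 20 fragments over both libraries, and 9 of them reached 20 in WT alone, so that their entry rested on the WT count. Krt78 stood just inside this minimum, with 23 fragments in all, and Krt13 just outside, with 15. Of the 16, 8 were lower by 2-fold or more in ILN/ILN, beside 6.28% of all 14101 genes with as many fragments. These were Krt8, Krt18, Krt19, Krt7, Krt20, Krt5, Krt14 and Krt17. One of the 16, Krt222, was higher by 2-fold or more, beside 1.65% of all genes. The other 7 lay within 2-fold. On the deposited FPKM-like values, with 1 or 0.1 added, 7 keratins reached 1 in either library, of which 4 were lower by 2-fold or more and 0 higher. Krt222, at 0.516 in ILN/ILN and 0.170 in WT, could not enter there. Nor could Krt20, Krt5, Krt14 and Krt17, which were under 1 in both libraries. The median log2 ratio of the 16 was -1.65, counting a 0 as 3 fragments, beside 0.003 over all 14101 genes. With a minimum of 50 fragments in place of 20 it was -4.19 and with a minimum of 10 it was -0.80, so the median depends on which keratins enter. When all 14101 genes were ordered by ratio with a 0 set to 3 fragments, Krt18 and Krt8 stood first and second from the low end and Krt19 at rank 15. The order of Krt18 and Krt8 comes from this setting. The 0 of Krt8 in ILN/ILN was raised to 3, while the 2 fragments of Krt18 were kept.

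**Figure D2:**
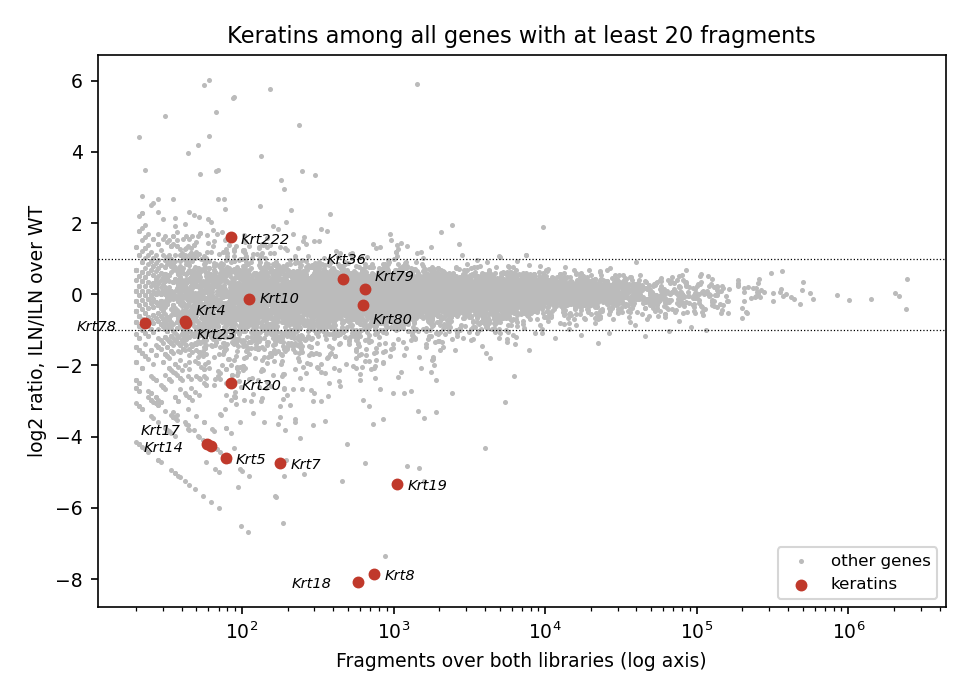
The log2 ratio of fragments, ILN/ILN over WT, against the fragments of both libraries (log axis) for 14101 genes with at least 20 fragments. Grey points are other genes, red points the 16 keratins, and dotted lines mark 2-fold; Krt18 and Krt8 are the lowest points of the plot, and Krt8 is drawn at its bound.

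Simple epithelial keratins form the filaments of single-layered and glandular epithelia. Their sum was 59 fragments in ILN/ILN against 2627 in WT, 41.5-fold lower (32.03 to 54.6). Krt8, the type II partner in luminal cells, had 0 fragments in ILN/ILN and 742 in WT, at least 230.3-fold lower. Krt18, its type I partner, had 2 fragments in ILN/ILN and 583 in WT, 271-fold lower (74.8 to 2246). Krt19, a type I keratin that lacks the tail domain of the others, had 24 fragments in ILN/ILN and 1029 in WT. It was 39.9-fold lower (26.7 to 62.6) and was the most abundant keratin of the WT library. The 3 members that carried the group in WT thus had 0 to 24 fragments in ILN/ILN.

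The other simple epithelial keratins had smaller ratios in size, although the interval of Krt7 overlaps that of Krt19. Krt7, a type II keratin of ducts, had 6 fragments in ILN/ILN and 172 in WT, 26.7-fold lower (12.01 to 73.7). Krt20, a type I keratin known from gut and bladder epithelium, had 12 fragments in ILN/ILN and 73 in WT, 5.66-fold lower (3.05 to 11.5). The interval of Krt20 lay apart from that of Krt19. Krt23, another type I keratin, had 15 fragments in ILN/ILN and 28 in WT, a ratio of 0.575 (0.286 to 1.11) whose interval includes 1. For Krt7 the length the authors counted over was 37.3% of its longest annotated protein-coding transcript, against a median of 91.3% over 49 keratins, so its count covers a smaller part of the transcript.

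**Figure D3:**
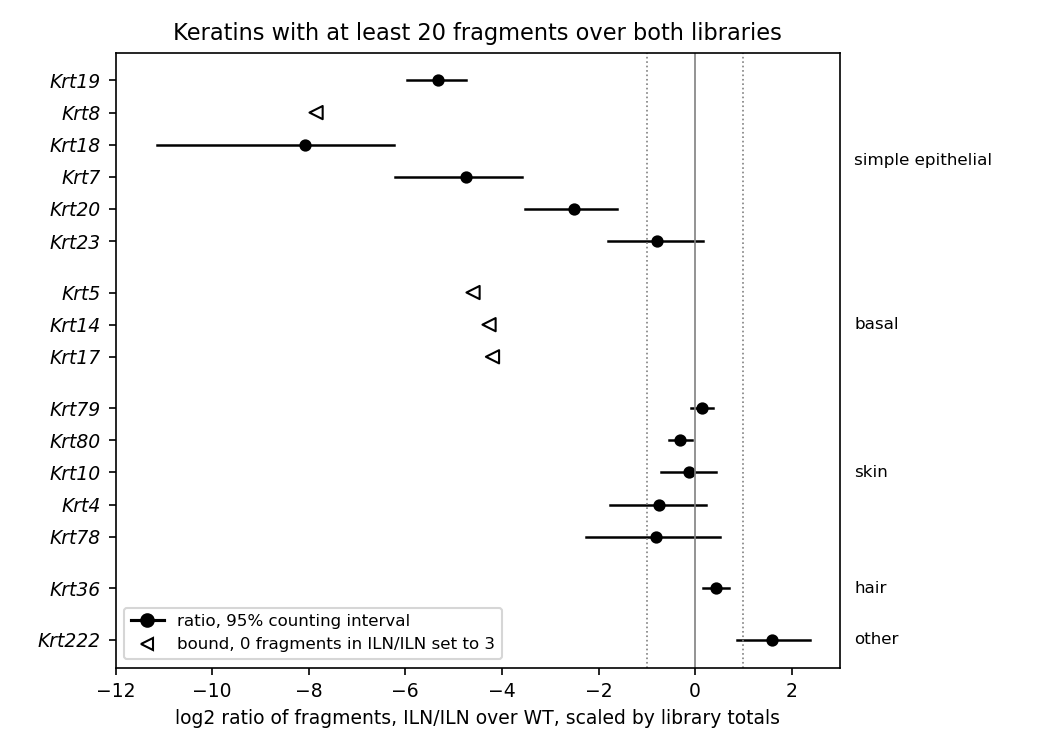
The log2 ratio of fragments, ILN/ILN over WT, for the 16 keratins with at least 20 fragments over both libraries, by group. Points are ratios with 95% intervals for counting error, open triangles are bounds for genes with 0 fragments in ILN/ILN, and dotted lines mark 2-fold. The 3 basal triangles lie between -4.19 and -4.60, whereas the skin and hair keratins lie between -0.80 and 0.44.

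Basal keratins mark the layer that faces the basement membrane, in the mammary gland as in the epidermis. All 4 were at 0 in ILN/ILN, against a sum of 202 fragments in WT, at least 62.7-fold lower. Krt5, the type II member, had 0 fragments in ILN/ILN and 78 in WT, at least 24.2-fold lower. Krt14, its type I partner, had 0 in ILN/ILN and 62 in WT, at least 19.2-fold lower. Krt17, a type I keratin of basal cells of glands and hair follicles, had 0 in ILN/ILN and 59 in WT, at least 18.3-fold lower. Krt15, a type I keratin of basal epidermis and the follicle bulge, had 0 in ILN/ILN and 3 in WT, too few for a ratio. Without Krt5 the summed bound was -5.27 on the log2 scale, in place of -5.97. Of the 14101 genes with at least 20 fragments, 44 were at 0 in ILN/ILN and 3 at 0 in WT. Of the 44, 19 had at least 50 fragments in WT, a set that genes enter through their WT count. Of the 16 keratins with ratios, 4 were in this set, namely Krt8, Krt5, Krt14 and Krt17.

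The promoters of Krt8, Krt18, Krt7 and Krt5, which were lower together, and of Krt79, Krt36 and Krt10, which were within 2-fold, are shown for comparison. They were chosen after the values were seen. Each runs from 100 bases before the start site to 10 after it, on the strand of the gene, from RefSeq (GRCm38.p6). The expression files were made on another build (mm9), so these coordinates belong to the sequences alone. Capitals mark the exact letters of a TATA box (TATAAA) or a GC box (GGGCGG) on either strand. In the Krt8 window TATAAA overlaps its reverse complement and lies across the annotated start site, not before it. Windows with no capitals hold neither run of letters. Near variants, such as TATATAAG in the Krt36 window, were not marked. The capitals therefore do not tell which of these promoters has a TATA box in use.
Krt8, chr15:102004333-102004442, minus strand: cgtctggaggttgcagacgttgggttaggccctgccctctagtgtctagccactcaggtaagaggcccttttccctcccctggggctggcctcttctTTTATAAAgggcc
Krt18, chr15:102028116-102028225, plus strand: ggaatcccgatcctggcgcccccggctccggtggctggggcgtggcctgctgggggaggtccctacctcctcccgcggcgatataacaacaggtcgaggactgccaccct
Krt7, chr15:101412303-101412412, plus strand: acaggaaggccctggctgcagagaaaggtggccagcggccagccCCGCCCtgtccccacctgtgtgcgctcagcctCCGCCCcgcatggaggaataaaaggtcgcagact
Krt5, chr15:101712896-101713005, minus strand: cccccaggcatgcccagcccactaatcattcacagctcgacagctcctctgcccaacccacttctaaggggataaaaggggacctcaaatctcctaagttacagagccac
Krt79, chr15:101940315-101940424, minus strand: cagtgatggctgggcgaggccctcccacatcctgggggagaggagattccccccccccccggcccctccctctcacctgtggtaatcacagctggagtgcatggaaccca
Krt36, chr11:100105617-100105726, minus strand: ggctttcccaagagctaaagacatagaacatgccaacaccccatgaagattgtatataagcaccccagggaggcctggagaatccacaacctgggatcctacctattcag
Krt10, chr11:99389355-99389464, minus strand: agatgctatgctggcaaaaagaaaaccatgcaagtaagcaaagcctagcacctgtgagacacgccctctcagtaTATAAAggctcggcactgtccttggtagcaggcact

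Of 52 keratins 35 matched a promoter in that table, as did 11 of the 16 with ratios. In windows of 250 bases before to 50 after the start, TATAAA on either strand stood in 54.3% of keratin promoters and in 13.6% of all 32851 promoters. Among the 11 keratins with ratios it stood in Krt8, Krt10 and Krt20, of which Krt8 and Krt20 were lower and Krt10 was within 2-fold. The GC box stood in 5.71% of keratin promoters and 35.7% of all promoters. Among those 11 only Krt7 held it. CCAAT on either strand stood in 37.1% of keratin promoters and 37.4% of all promoters, with Krt10 and Krt36 among the 11. The AP-1 letters TGANTCA, which read the same on both strands, stood in 2.86% of keratin promoters and 7.81% of all promoters, and in none of the 11. These are counts of letters within these windows alone.

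Skin keratins come from the layers of the epidermis and of other stratified epithelia. Their sum was 691 fragments in ILN/ILN and 777 in WT, a ratio of 0.955 (0.861 to 1.06), so counting error alone covers equal levels. Krt79, a type II keratin of the follicle opening and sebaceous duct, had 325 fragments in ILN/ILN and 318 in WT, a ratio of 1.098 (0.938 to 1.29). Krt80, a type II keratin found in many epithelia and near desmosomes, had 268 in ILN/ILN and 356 in WT, a ratio of 0.809 (0.687 to 0.9501). Krt10, the type I keratin of the upper epidermis, had 51 in ILN/ILN and 60 in WT, a ratio of 0.913 (0.616 to 1.35). The 3 genes lay within 2-fold, and the interval of Krt80 alone excluded 1. As for Krt7, the counted length of Krt80 was a small share of its longest transcript, 43.4%.

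The remaining skin keratins had few fragments. Krt4, the type II keratin of mucosal stratified epithelia, had 15 fragments in ILN/ILN and 27 in WT, a ratio of 0.597 (0.295 to 1.16). Its type I partner Krt13 had 15 in ILN/ILN and 0 in WT, at least 5.37-fold higher, but its 15 fragments lie under the minimum of 20. Krt78 had 8 in ILN/ILN and 15 in WT, a ratio of 0.573 (0.210 to 1.44). Krt16, a stress keratin of the epidermis, and Krt9, the keratin of palm and sole skin, each had 4 in ILN/ILN and 0 in WT. Krt1, the known partner of Krt10, had 1 fragment in ILN/ILN and 0 in WT, and Krt12, the keratin of the cornea, had 0 and 1 in the same order. Krt2, Krt6a, Krt6b, Krt24, Krt76 and Krt77 had none in either library. Krt10 was therefore found nearly without its epidermal partner in both libraries.

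Hair keratins build the hair shaft, the inner root sheath and related layers. Their sum was 267 fragments in ILN/ILN and 208 in WT, a ratio of 1.38 (1.15 to 1.66), and Krt36 made up nearly all of it. Krt36, a type I keratin of the hard, hair type, had 259 fragments in ILN/ILN and 205 in WT, a ratio of 1.36 (1.13 to 1.64). Krt75, a type II keratin of the follicle's companion layer, had 5 in ILN/ILN and 0 in WT. Without Krt36 the hair sum was 8 fragments in ILN/ILN and 3 in WT, a log2 ratio of 1.52. Krt28, Krt42, Krt71 and Krt83 had at most 2 fragments in any library, and 18 other hair keratins had none. The 51 Krtap genes, which encode the matrix proteins of the hair shaft, had 0 fragments in ILN/ILN and 2 in WT. Krt36 was thus found with almost no fragment of the other shaft keratins or their matrix proteins in both libraries.

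Krt222, a keratin-related gene of uncertain role, had 62 fragments in ILN/ILN and 22 in WT, a ratio of 3.03 (1.83 to 5.17). It ranked 81 from the high end of the 14101 genes. In the GRCm38 annotation it overlaps the noncoding gene Gm32385, Krt80 overlaps Gm35853 and Mir1941, and Krt12 overlaps A830036E02Rik. The libraries marked strand, but the sources used here do not say whether counting used it, so the values of these keratins are uncertain. Krt14, Krt16, Krt17 and Krt42 have close relatives within the family, as do Krt6a and Krt6b and several hair keratins, and how reads shared between them were counted is likewise not stated.

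The make-up of the keratin fragments does not depend on library totals and differed between the libraries. Simple epithelial keratins took 5.47% of the keratin fragments (Clopper-Pearson 4.19 to 6.997%) in ILN/ILN and 68.5% (67.0 to 70.0%) in WT. Basal keratins took 0%, with an upper limit of 0.341%, in ILN/ILN and 5.27% (4.58 to 6.02%) in WT. Skin keratins took 64.0% (61.1 to 66.9%) in ILN/ILN and 20.3% (19.0 to 21.6%) in WT. Hair keratins took 24.7% (22.2 to 27.4%) in ILN/ILN and 5.42% (4.73 to 6.19%) in WT, and Krt222 took 5.75% (4.43 to 7.31%) and 0.574% (0.360 to 0.867%) in the same order. The 3 leading keratins were Krt79, Krt80 and Krt36 in ILN/ILN, with 79.0% (76.4 to 81.4%) of its keratin fragments, and Krt19, Krt8 and Krt18 in WT, with 61.4% (59.8 to 62.9%). Per length, by the deposited FPKM-like value, the leading keratins were Krt36 at 3.60, Krt79 at 3.53 and Krt80 at 3.49 in ILN/ILN, and Krt19 at 15.5, Krt18 at 9.06 and Krt8 at 8.83 in WT.

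**Figure D4:**
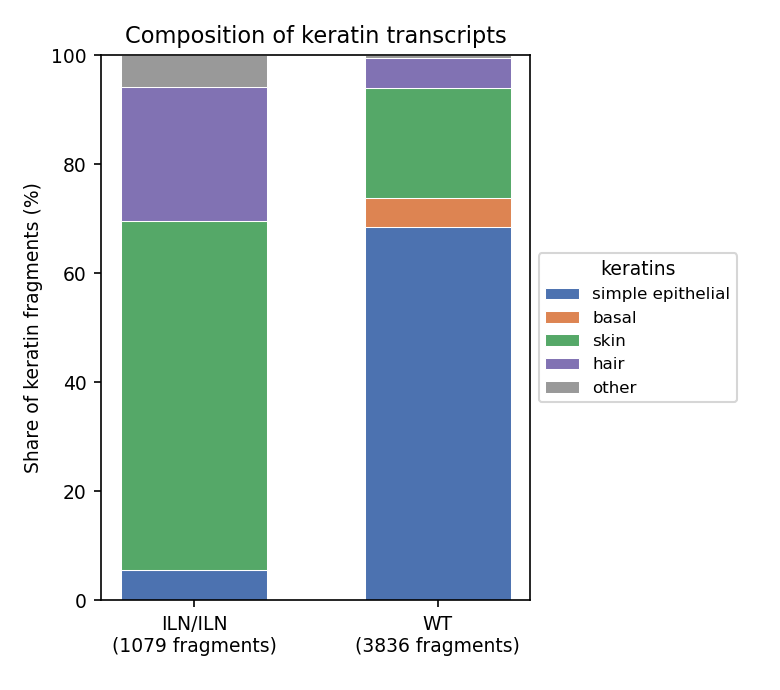
Share of the keratin fragments (%) taken by each keratin group in ILN/ILN (left bar, 1079 fragments) and the WT library (right bar, 3836 fragments). Simple epithelial keratins take 5.47% of the left bar and 68.5% of the right bar, and skin keratins 64.0% and 20.3%.

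Because filaments need both types, partners were compared per kilobase of counted length within each library. In the WT library Krt18 had 439.7 and Krt8 428.7 fragments per kilobase, a ratio of 1.03 (0.919 to 1.14). Krt14 had 41.1 and Krt5 38.9 per kilobase, a ratio of 1.06 (0.744 to 1.49), and Krt17 was 1.04 times Krt5 (0.729 to 1.48). For these 3 luminal and basal pairings the intervals include 1, whereas Krt19 was 1.76 times Krt8 (1.60 to 1.93). The partners from stratified epithelia were far apart in WT, with Krt10 at 29.3 and Krt1 at 0 per kilobase, and Krt13 at 0 and Krt4 at 13.02. In the ILN/ILN library the luminal and basal ratios could not be formed, since Krt8 and Krt5 were at 0. There Krt10 stood at 24.9 and Krt1 at 0.419 per kilobase, and Krt13 was 1.67 times Krt4 (0.762 to 3.67). Over all keratins, type I summed to 241 and type II to 333 fragments per kilobase in ILN/ILN, a ratio of 0.724. In the WT library the sums were 1494 and 964, a ratio of 1.55. Krt222 was left out of both sums.

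The 51 keratins matched in the GRCm38 annotation lie in 2 clusters, type I genes with Krt222 on chromosome 11 and type II genes with the type I gene Krt18 on chromosome 15. Of the 16 keratins with ratios, 8 lay in each cluster. Both clusters held keratins that were lower and keratins within 2-fold, and Krt8 and Krt18 shared theirs with Krt79 and Krt78. Protein-coding genes inside or within 200 kb of the clusters, keratins and Krtap genes left out, had a median log2 ratio of -0.045 over 25 genes. Of these 25, 3 were lower by 2-fold or more and 0 higher, beside 6.28% and 1.65% of all genes. Counts this small cannot be told apart from those shares or from larger ones. Ccr7, a lymphocyte chemokine receptor, had 294 fragments in ILN/ILN and 905 in WT. Itgb7, a lymphocyte integrin chain, had 661 in ILN/ILN and 1535 in WT. Hap1, which encodes a huntingtin-associated protein, had 40 in ILN/ILN and 100 in WT. For Hap1 the final estimate in WT was not the original one. Its deposited values, 0.294 in ILN/ILN and 2.22 in WT, lay farther apart than its fragments.

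Markers of the cells that carry keratins were read beside them, and for every list the shares over all genes are those above, 6.28% lower and 1.65% higher. Of 16 luminal epithelial markers with at least 20 fragments, 13 were lower by 2-fold or more and 0 higher in ILN/ILN. The median log2 ratio of the 16 was -3.51. Epcam, Cdh1, Cldn3, Cldn4, Cldn7, Elf5, Prom1, Esrp1, Grhl2 and Rab25 reached 20 in WT alone, so their entry rested on the WT count. All of these were among the 13, which favours a high count of lower genes and a low median. Of the markers that reached 20 in ILN/ILN, Ltf, Prlr and Spint2 were lower and Muc1, Ehf and Spint1 were within 2-fold. The list summed to 10.8 fragments per 1000000 in ILN/ILN and 49.7 in WT, and Elf5, Elf3, Cldn7 and Csn3 were at 0 in ILN/ILN. Epcam, an adhesion protein of epithelial cells, had 5 fragments in ILN/ILN and 184 in WT, 34.3-fold lower (14.4 to 106.8). Cdh1, the epithelial cadherin, had 7 in ILN/ILN and 189 in WT, 25.1-fold lower (11.96 to 63.4). Cldn4, a tight junction protein, had 1 in ILN/ILN and 97 in WT, and Rab25, a trafficking GTPase of epithelia, had 1 and 61 in the same order. Muc1, Ehf and Spint1 lay within 2-fold, with ratios of 0.735, 0.859 and 0.973 and intervals that include 1. For Spint2, counted among the 13, the final estimate was not the original one in either library. Its deposited values were 7.35 in ILN/ILN and 9.91 in WT, which is within 2-fold. Luminal keratins and many, but not all, luminal markers were thus lower in the same library, with most of those markers entered through WT alone.

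Basal markers that are no keratins differed less. Of 11, 3 were lower by 2-fold or more, namely Col17a1, Lgr6 and Sfn, and 0 were higher. The median log2 ratio was -0.36. The list summed to 259.9 per 1000000 in ILN/ILN and 289.4 in WT, and none of its genes was at 0 in ILN/ILN. Trp63, the transcription factor of basal epithelium, had 109 fragments in ILN/ILN and 147 in WT, a ratio of 0.796 (0.616 to 1.03). Acta2, which vessel walls express too, had 3343 in ILN/ILN and 4677 in WT. Basal keratins were at 0 in ILN/ILN, where Trp63 was not. Trp63 was counted over 866 bases. Its deposited value in WT, 3.50, was above those of Krt5, 0.801, and Krt14, 0.846. Which cells its fragments came from was not tested.

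Keratinocyte markers were mixed. Of 9 with at least 20 fragments 7 were lower by 2-fold or more and 0 higher in ILN/ILN, and the median log2 ratio was -1.55. Yet the list summed to 165 per 1000000 in ILN/ILN and 132 in WT, mostly from Cdsn, which encodes corneodesmosin of the upper epidermis, which had 6324 fragments in ILN/ILN and 4141 in WT. Cdsn was named after its values were seen. Krtdap had 3 in ILN/ILN and 65 in WT, 20.2-fold lower (6.60 to 100.4). Dmkn, which encodes a secreted epidermal protein, had 14 in ILN/ILN and 165 in WT, 10.97-fold lower (6.36 to 20.5). The cornified envelope genes were near 0 in both libraries, Lor with 4 fragments in ILN/ILN and 2 in WT and Ivl with 0 and 3 in the same order. Casp14, Flg2, Klk5 and Sprr1b had none, while Lgals7 and Sprr1a had 0 in ILN/ILN and 20 and 28 in WT. Lgals7, Sprr1a, Krtdap and Dmkn thus reached 20 in WT alone, and their entry rested on the WT count. Of the hair follicle list, which summed to 1.33 per 1000000 in ILN/ILN and 5.22 in WT, only Gata3 and Tchh reached 20 fragments. Gata3, which luminal cells and lymphocytes also express, had 37 in ILN/ILN and 204 in WT, 5.13-fold lower (3.60 to 7.50). Tchh, the trichohyalin of the inner root sheath, had 19 in ILN/ILN and 21 in WT.

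The 7 markers of mesothelium, which also makes simple epithelial keratins, were split between genes at or near 0 and genes well above it. Msln had 0 fragments in ILN/ILN and 6 in WT, Upk3b had 0 and 2 and Upk1b 0 and 4 in the same order, and Wt1 and Bnc1 had none. The list summed to 6.70 per 1000000 in ILN/ILN and 7.70 in WT, mostly from Lrrn4 and Gpm6a. Lrrn4 had 249 fragments in ILN/ILN and 279 in WT, a ratio of 0.959 (0.805 to 1.14). Gpm6a had 39 in ILN/ILN and 64 in WT, a ratio of 0.654 (0.428 to 0.990). Of 8 white adipocyte markers none passed 2-fold, and the median log2 ratio was 0.016, with sums of 60270 per 1000000 in ILN/ILN and 68112 in WT. All 6 B cell markers passed 2-fold, all lower in ILN/ILN. Their median log2 ratio was -2.47, with sums of 50.7 per 1000000 in ILN/ILN and 273 in WT. B cells do not build keratin filaments, so more than 1 kind of cell marker was low in ILN/ILN. The part of tissue make-up in the keratin values was not tested.

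**Figure D5:**
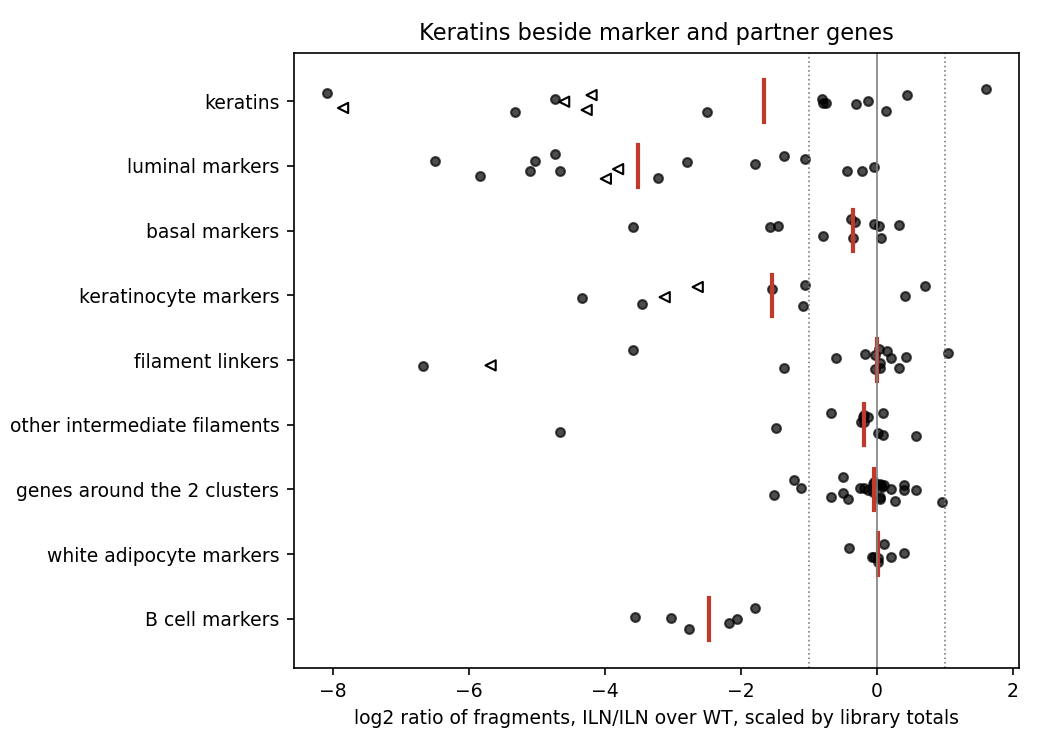
The log2 ratio of fragments, ILN/ILN over WT, for genes with at least 20 fragments over both libraries in 9 lists. Points are genes, open triangles are bounds for genes with 0 fragments in ILN/ILN, red bars are list medians and dotted lines mark 2-fold; the medians are -1.65 for keratins, -3.51 for luminal markers, 0.004 for filament linkers and 0.016 for white adipocyte markers.

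Proteins that tie keratin filaments to junctions were split. Of 16 filament linker genes with at least 20 fragments 4 were lower by 2-fold or more and 1 higher in ILN/ILN, and the median log2 ratio was 0.004. Dsp, which encodes desmoplakin, the protein that anchors keratins to desmosomes, had 0 fragments in ILN/ILN and 165 in WT, at least 51.2-fold lower. Dsg2, a desmosomal cadherin, had 1 in ILN/ILN and 109 in WT, 101.5-fold lower (17.8 to 4045). Col17a1, a collagen of hemidesmosomes that is on the basal list too, had 7 in ILN/ILN and 90 in WT, 11.97-fold lower (5.58 to 30.6). Dsp, Dsg2 and Col17a1 reached 20 fragments in WT alone, so their entry rested on the WT count. Pkp3, plakophilin 3, had 64 in ILN/ILN and 177 in WT, 2.57-fold lower (1.92 to 3.48). Ppl, which encodes periplakin, was 2.06-fold higher (1.94 to 2.18), with 3312 fragments in ILN/ILN and 1730 in WT. The linkers Jup, Plec and Dst had ratios of 1.03, 0.885 and 1.16. Pkp1, Pkp2, Evpl and Eppk1 also lay within 2-fold, with ratios of 1.26, 1.11, 1.04 and 1.02 and intervals that include 1. Dsc2 and Dsc3 each had 0 in ILN/ILN and 16 in WT. The linkers from Jup to Dsc3 were named after their values were seen. What sets the lower linkers apart from the others was not tested.

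Other intermediate filament genes were read beside the keratins. Of 12 with at least 20 fragments 2 were lower by 2-fold or more and 0 higher, beside 6.28% and 1.65% of all genes, and the median log2 ratio was -0.19. Vim, the vimentin gene of mesenchymal cells, had 71250 fragments in ILN/ILN and 72075 in WT, a ratio of 1.06 (1.05 to 1.07), and far exceeded all keratins together. Nefh, a neurofilament gene, had 1 in ILN/ILN and 27 in WT, 25.1-fold lower (4.14 to 1029). Prph, a filament of peripheral nerve, had 5 in ILN/ILN and 15 in WT, a ratio of 0.358 (0.102 to 1.04) whose interval includes 1. Nes, the nestin gene, had 651 in ILN/ILN and 469 in WT, a ratio of 1.49 (1.32 to 1.68). Des, of muscle, had a ratio of 0.853 (0.783 to 0.929).

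The ILN allele targets miR-132 and miR-212, whose 3p strands share their seed, bases 2 to 8, shown in capitals (RefSeq, GRCm38.p6). They lie on the plus strand at chr11:75173723-75173744 for miR-132-3p and chr11:75173443-75173464 for miR-212-3p.
mmu-miR-132-3p: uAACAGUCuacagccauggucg
mmu-miR-212-3p: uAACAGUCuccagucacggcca
A match to this seed in the longest 3' untranslated region of the GENCODE annotation (GRCm38) is GACTGTT, shown in capitals in the keratins that hold it.
Krt24 site: gaaattggctctGACTGTTtctgtagctca
Krt35 site: tccagtcaatctGACTGTTacagcgcaaat
Of 48 keratins with such a region these 2 held a match, or 4.17%, and both had 0 fragments in both libraries. Among 12422 genes with at least 20 fragments 1561 held one, or 12.6%. Keratin regions were shorter, with a median of 355.5 bases against 1164.5 bases. None of the keratins with a ratio held a match in the region searched.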

How the data were processed

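Polyadenylated RNA of 1 ILN/ILN and 1 WT mammary gland sample was sequenced after second-strand dUTP marking on an Illumina GAIIx, with 2 lanes per sample, per the labels' protocols. Bowtie 0.12.3, TopHat 1.4.1, bedtools and mm9 are listed in the submitters' processing notes, without saying what each did. The sources used here do not name the program behind the gene tables. Deposited by the authors was 1 table of 21113 genes per sample. Per the file headers it holds an FPKM-like value, its log2(value + 1), and a signal per kilobase as original, derived and final estimates. The original signal times the deposited length gave whole numbers (tolerance 0.01) for 100.0% of genes with an estimate, and these are called fragments. In all 52 keratins the final estimate was the original one.

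Fragments were scaled by their sum per library. Intervals are exact conditional 95% intervals (Python 3.11.15, scipy 1.17.1), covering counting error only, since sequenced fragments are not independent molecules. Shares have Clopper-Pearson intervals. The steps were tested on simulated data. Genes with at least 20 fragments over both libraries had ratios and medians. Every keratin is accounted for. In each other list the 6 genes farthest from a log2 ratio of 0 could be named, with Epcam, Cdh1, Trp63, Vim and Msln. Others were picked with their values in view. The members and lists were chosen with earlier results of these data known.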

Additional observations from a re-analysis of the deposited data

How the results depend on the processing

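No alternative turned the direction of any of the 16 keratins with ratios, but these alternatives could not have done so. The shifts from scaling were smaller than the smallest log2 ratio in size, -0.131 for Krt10. A pseudocount added to both values does not change which is larger. Intervals for Krt10, Krt79, Krt4, Krt23 and Krt78 include 1, so counting error alone leaves their direction open. Scaling by the median ratio of genes or by the upper quartile shifted every log2 ratio by -0.022 or -0.016 and left the counts at 8 lower and 1 higher. From the deposited values, with 7 keratins at 1 or more, 4 were at least 2-fold lower and 0 higher with a pseudocount of 1 or of 0.1. Krt222, Krt20, Krt5, Krt14 and Krt17 were under 1 and did not enter, so these counts differ by entry. The median of the 7 was -1.61 with 1 and -3.69 with 0.1, so its size depends on the pseudocount. With a minimum of 10 fragments 2 keratins, Krt222 and Krt13, were at least 2-fold higher and the median was -0.80, and with a minimum of 50 it was -4.19. Without keratins that have a near copy the median was -0.80. Without its most abundant member the log2 ratio of the basal sum was -5.27 (a bound), of the skin sum -0.22 and of the hair sum 1.52, the last from 8 fragments in ILN/ILN and 3 in WT. A sum of the deposited values gave no ratio for basal keratins, which were at 0 in ILN/ILN. With another minimum or without near copies the set of keratins changes by construction, and with the deposited values the scale changes too. No paired analysis was possible because each genotype had 1 library. For the same reason no replicate could be left out. Depth limits the keratins under 20 fragments: a gene at 0 could be present at up to 3 fragments.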
